A study of Mus musculus with 117 samples.

Results

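Lung cells that carried prominin-1 at their surface were compared with lung cells that did not. The 10 samples were chosen by their titles, which name normal lung and the Prom1 status, and comprised 3 Prom1-positive and 7 Prom1-negative samples out of 117 in the series. All 10 came from C57BL/6 mice and are labelled as normal tissue. The lung had been dissociated to single cells, and the cells were separated with anti-Prom1 MicroBeads, which are magnetic particles coated with an antibody to the protein. RNA was taken from the sorted cells with a PicoPure kit and hybridised to single-colour Affymetrix arrays. No treatment, transgene, age, sex or genotype is given for these samples, and none of them is labelled as a mutant, although the series also mentions Prom1 conditional mutants with tumours. The labels do not state that the samples came from separate animals or give the purity of the fractions. The p-values therefore measure a spread between samples, which need not be a spread between animals. That spread was pooled over the groups of all sorted normal samples of the series, other tissues included. It is not the spread of the lung samples alone. The series asks how cells sorted on Prom1 relate to cancers of several organs. The comparison described here asks how the 2 fractions of normal lung differed.

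Prominin-1, also called CD133, is a glycoprotein with several membrane-spanning stretches that sits in microvilli and other protrusions of the plasma membrane, and it is widely used to sort stem and progenitor cells. The lung holds a gas-exchange epithelium of flat type 1 and surfactant-producing type 2 cells, an airway epithelium of club and ciliated cells, a dense capillary bed, fibroblasts and a covering mesothelium. It also holds many immune cells: alveolar macrophages in the air spaces, interstitial macrophages in the tissue around vessels and bronchi, and T cells, NK cells, B cells and neutrophils. Antibody-based sorting selects on a surface protein, whereas the arrays measured transcripts.

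The values are log2 probe set signals, so 1 unit is a factor of 2, and each gene is represented by its brightest probe set. Differences are positive minus negative, estimated with limma over all 51 sorted normal samples of the series, and a gene was called at a Benjamini-Hochberg adjusted p under 0.05 over 14081 genes. The mean of the medians of the lung arrays was 3.75, and a group mean under that level can be background. An array gives no depth, and the precision is limited by the 3 positive samples.

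The quality measures of the arrays differed between the fractions. The 3' to 5' ratio of the Actb control, on the log2 scale, was 1.05 ± 0.06 (SD, n = 3) in positive and 0.57 ± 0.11 (SD, n = 7) in negative samples, with no overlap, and the upper quartile of the arrays was 5.85 to 6.51 against 6.08 to 6.45, lowest in positive sample 4. The median of the non-specific control probe sets was 2.51 to 2.68 in positive and 2.27 to 2.48 in negative samples, also with no overlap. Of the 212 genes called in lung, 60 lost their call when the Actb ratio was added as a covariate, and 19 when the upper quartile was added instead. The part of the non-specific signal was not tested. The genes described most fully are the 15 largest called rises and the 15 largest called falls among genes whose fractions did not overlap, so their separation follows from the choice. These 15 and 15 genes were called with either covariate. They had been picked as the largest separated differences, so this is not an independent check. In lung the Actb ratio went with the fraction without overlap, so ratio and fraction cannot be told apart there. Positive sample 1 stood apart from the other positive samples. Its correlation across genes was 0.91 with positive sample 2 and 0.90 with positive sample 4, but 0.97 with negative sample 3.

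Sorted on Prom1, the fractions did not differ in the Prom1 transcript. Its signal was 6.55, 6.57 and 6.55 in positive samples 1, 2 and 4, and in negative samples it had a lowest value of 5.92, a median of 6.53 and a highest value of 7.37. The positive values lay inside the range of the negative ones. The difference was 0.01 (SE 0.38, 95% interval -0.77 to 0.78, limma adjusted p = 0.999). Of 11 genes tested for prominins and membrane protrusions, none was called, with a median difference of -0.11. Prom2, the other prominin gene, was under the array median in both fractions (2.73 ± 0.12, n = 3, and 2.96 ± 0.19, n = 7). The label of the positive fraction thus refers to the surface protein bound by the beads, and the transcript gave no separation to check it by.

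Genes of tissue-resident macrophages were the largest rises in the positive fraction, and genes of T cells, NK cells and neutrophils were the largest falls. In all, 212 genes were called, or 1.51% of those tested, and 1346 genes had an unadjusted p under 0.05. Of the 212, 55 were higher in positive cells (0.391% of genes tested) and the rest were lower (1.11%), and the median difference of all genes was -0.01. The 3 positive samples did not overlap the 7 negative ones in 44 of the 55 higher genes (80.0%) and in 72.6% of the lower genes. Over all genes tested, such separation was found upward in 2.02% and downward in 2.4%. These shares of called and separated genes are the background for each count of list members given below. In bulk samples, fewer cells of a type and less RNA per cell cannot be told apart. The number of calls moved with single positive samples: omitting positive sample 1, 2 or 4 gave 526, 124 and 120. Of the higher genes 10, and of the lower genes 44, were called in each of the 10 fits that left out 1 lung sample.

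**Figure D1:**
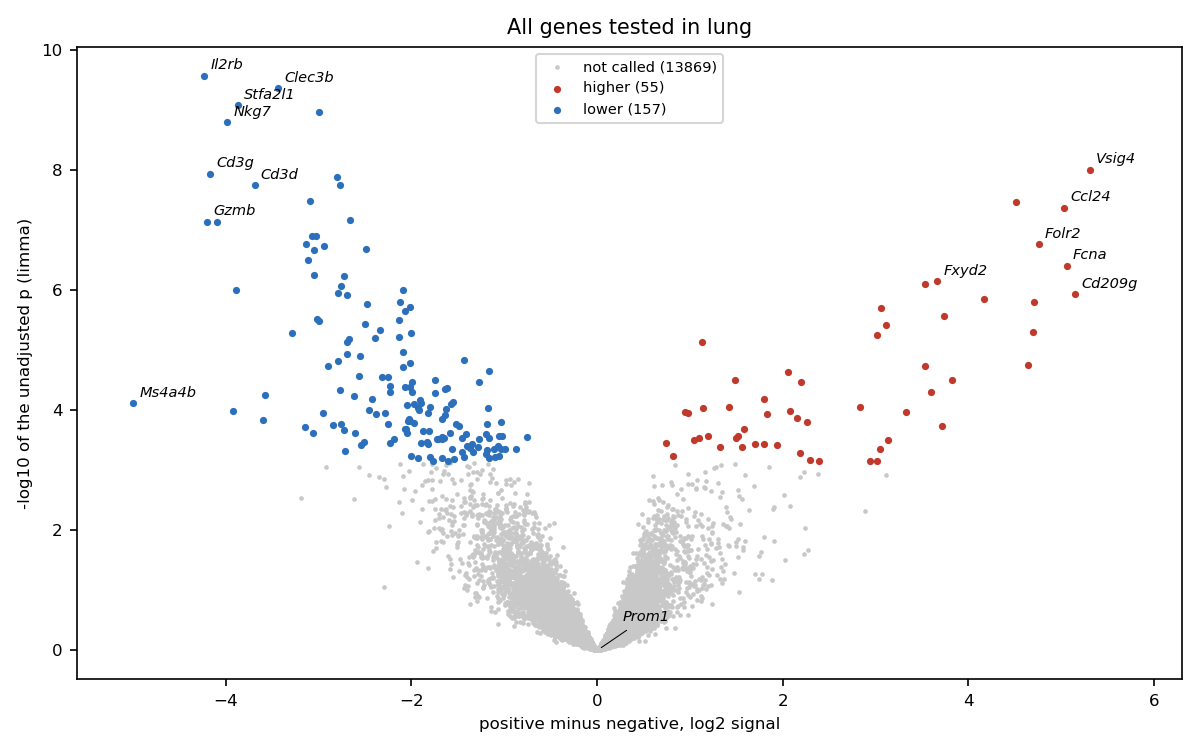
Difference between Prom1-positive and Prom1-negative lung cells (x axis, log2 signal, 3 against 7 samples) against the -log10 of the unadjusted limma p (y axis) for each of 14081 genes. The 55 genes called higher include Vsig4, Cd209g, Fcna and Ccl24 at the right edge, those called lower include Ms4a4b, Il2rb, Gzmb and Cd3g at the left edge, and Prom1 lies near the origin.

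Resident macrophages of the interstitium and of serous cavities carry scavenger receptors, C-type lectins and receptors for complement. With these they take up debris and microbes. The list of their genes used here shares the scavenger receptor Marco with the list of alveolar macrophages. Of 29 genes tested on the list of resident macrophages, 13 rose and none fell, with a median difference of 2.23 beside -0.01 for all genes. A positive sign was found in 28 of the 29, beside 6848 of all 14081 genes tested. The mean signal of the list was 8.34, 9.96 and 9.09 in positive samples 1, 2 and 4 and 5.72 to 7.07 in negative samples. Positive sample 2 was highest, and the fractions did not overlap. Omitting positive sample 1, 2 or 4 gave counts of 15, 7 and 10. The members were listed with results of these data known, so the count is a description and not independent evidence of the direction.

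Among the receptors, Vsig4 showed the largest rise of all genes. It encodes the complement receptor of the immunoglobulin superfamily, which binds fragments of C3 on opsonised particles. Its signal was 6.75, 9.13 and 9.82 in positive samples 1, 2 and 4, against a lowest of 2.19, a median of 3.11 and a highest of 4.33 in negative samples. Positive sample 1 was the lowest of the positive samples, and the negative mean of 3.26 ± 0.72 (SD, n = 7) was under the array median, where signals can be background. The difference was 5.31 (SE 0.75, limma adjusted p = 2.27e-05), and the gene was called with each lung sample left out. Folr2, the folate receptor beta, read 9.29, 11.52 and 9.89 in positive samples and 3.94, 5.88 and 6.61 (lowest, median, highest) in negative ones. Positive sample 2 was highest. Its difference was 4.76 (SE 0.77, adjusted p = 0.000119), called with each sample left out.

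Cd163 and Timd4 are scavenger receptors of macrophages, for haemoglobin bound to haptoglobin and for phosphatidylserine on dying cells. Cd163 read 7.76, 10.35 and 8.44 in positive samples and had a lowest of 3.69, a median of 5.39 and a highest of 6.09 in negative ones, which gave a difference of 3.82 (SE 0.82, limma adjusted p = 0.00588). Without positive sample 2 the adjusted p was 0.128. Timd4 was lower in positive sample 1 (6.07) than in positive samples 2 (8.43) and 4 (9.21), and its lowest positive value lay under the highest negative one (6.13). Its difference of 3.01 (adjusted p = 0.0466) was not called without positive sample 2 (0.26), positive sample 4 (0.501) or any of negative samples 1, 5, 6 and 7 (0.0669 to 0.115). The mannose receptor Mrc1 was well above the array median in both fractions, at 11.03 ± 0.96 (n = 3) and 10.53 ± 0.66 (n = 7), and was not called (0.50, adjusted p = 0.964).

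The C-type lectins of the Cd209 family bind sugars of microbes and are mouse relatives of human DC-SIGN. Of 25 C-type lectin receptor genes tested, 6 rose (Cd209g, Cd209f, Cd209b, Clec10a, Cd209d and Clec4g) and 1 fell (Clec2d, a ligand of NK cell receptors), with a median difference of 0.29. All the genes that rose except Clec4g are also on the list of resident macrophages. Omitting positive sample 2 or 4 gave 2 and 4 rises. The call of Clec2d was lost in 7 of the 10 fits that left out a sample, and that of Clec4g in 4. Cd209g read 7.65, 10.21 and 8.49 in positive samples and 2.62, 3.43 and 4.64 (lowest, median, highest) in negative ones. Cd209f read 9.21, 10.999 and 9.65 against 3.91, 5.08 and 6.55. Positive sample 2 was highest in both genes, which differed by 5.15 (SE 0.91, limma adjusted p = 0.000476) and 4.70 (SE 0.85, adjusted p = 0.000582). Both were called with each sample left out.

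Cd209f and Cd209g lie near each other on chromosome 8, and their promoters are shown because the genes moved together and the sequences are much alike. The 250 bases before each start are given 5′ to 3′ on the strand of the gene, from RefSeq on GRCm38.p6, with the longest run shared by both in capitals.
Cd209f promoter, chr8:4105765-4106014, minus strand: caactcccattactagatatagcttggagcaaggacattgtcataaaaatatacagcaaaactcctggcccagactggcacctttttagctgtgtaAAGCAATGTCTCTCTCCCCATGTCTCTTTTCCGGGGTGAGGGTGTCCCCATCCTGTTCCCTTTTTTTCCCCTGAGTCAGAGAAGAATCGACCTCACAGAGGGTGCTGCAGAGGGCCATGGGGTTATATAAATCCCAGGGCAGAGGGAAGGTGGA
Cd209g promoter, chr8:4134486-4134735, plus strand: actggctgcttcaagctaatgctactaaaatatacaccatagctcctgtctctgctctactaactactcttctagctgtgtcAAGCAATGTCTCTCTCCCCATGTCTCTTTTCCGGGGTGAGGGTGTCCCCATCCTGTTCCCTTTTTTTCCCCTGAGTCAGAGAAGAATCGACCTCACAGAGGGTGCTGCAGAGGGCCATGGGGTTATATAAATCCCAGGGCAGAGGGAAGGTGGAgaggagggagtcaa
The shared run is 154 bases long and ends at the start of Cd209f and 14 bases before the start of Cd209g. With that offset, 189 of 236 aligned bases were identical (80.1%). Whether their transcripts are as alike, and whether probes for one detect the other, was not tested.

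Cd209b and Cd209d followed the same pattern. Cd209b, known as SIGN-R1, read 6.87, 8.61 and 5.80 in positive samples and 3.17 to 3.67 in negative ones, all under the array median. Its difference was 3.73 (SE 0.69, limma adjusted p = 0.000876), and it missed the threshold narrowly (0.05004) without positive sample 2. Cd209d read 7.37, 9.82 and 6.64 against 3.57 to 5.27, and its difference of 3.60 (adjusted p = 0.00803) was not called without positive sample 2 (0.218). Clec10a, the macrophage galactose lectin, read 9.14, 10.90 and 9.62 against 4.54 to 7.22. Positive sample 2 was highest again, and the gene differed by 3.71 (adjusted p = 0.0191), but was not called without positive sample 2 (0.195) or positive sample 4 (0.0756).

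**Figure D2:**
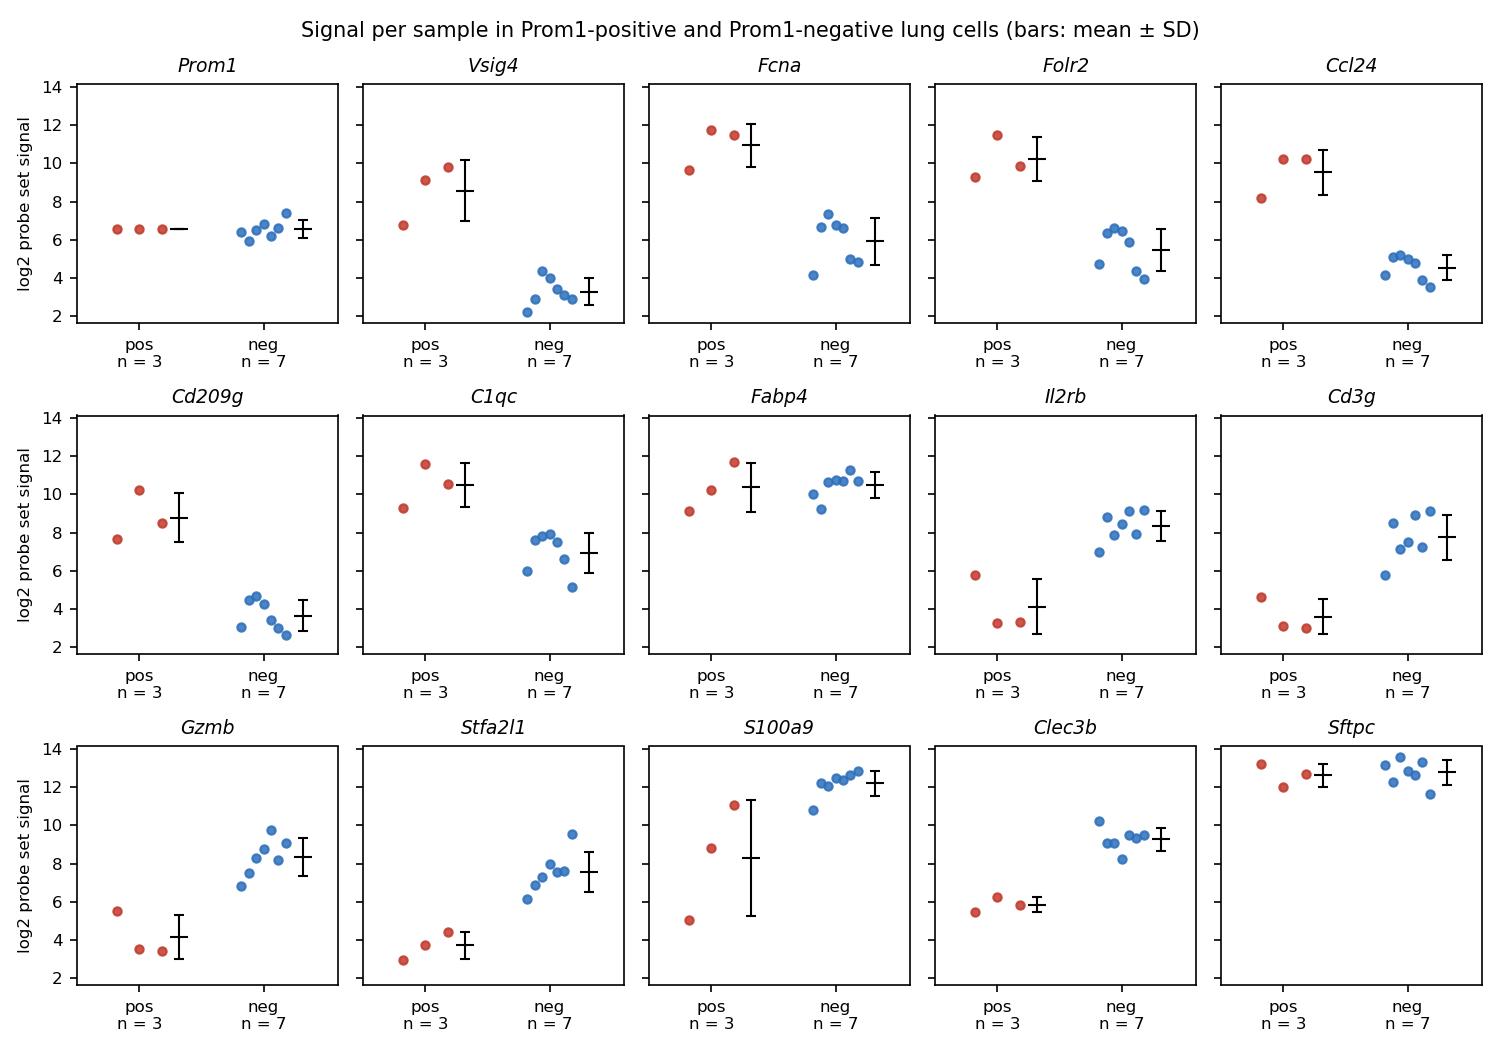
Log2 probe set signal of 15 genes in each Prom1-positive (red, n = 3) and Prom1-negative (blue, n = 7) lung sample, with the mean ± SD beside the points. Vsig4, Fcna, Folr2, Ccl24, Cd209g and C1qc lie higher and Il2rb, Cd3g, Gzmb, Stfa2l1 and Clec3b lower in positive samples without overlap, whereas Prom1, Fabp4 and Sftpc overlap.

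Some complement genes rose as well. Of 19 complement genes tested, 6 rose (Vsig4, Fcna, C1qc, C1qb, C1qa and C3ar1) and none fell, with a median difference of 0.58. Vsig4 and Fcna are also on the list of resident macrophages, and the C1q genes are on the list that most macrophages and monocytes share. Omitting positive sample 2 or 4 gave counts of 2 and 3. Fcna encodes ficolin A, which recognises sugars and starts the lectin pathway. It read 9.67, 11.74 and 11.49 in positive samples and 4.15, 6.596 and 7.34 (lowest, median, highest) in negative ones. Positive sample 1 was the lowest of the positive samples, and the difference was 5.06 (SE 0.85, limma adjusted p = 0.000219), called with each sample left out. The C1q chains start the classical pathway, and in positive samples C1qa read 10.24, 12.12 and 11.24, C1qb 9.99, 12.04 and 11.20, and C1qc 9.29, 11.59 and 10.53. In negative samples they ranged from 6.33 to 9.21, from 6.20 to 8.57 and from 5.15 to 7.91. All were separated without overlap and lowest in negative sample 7, and the differences were 3.05, 3.32 and 3.53 (adjusted p = 0.0328, 0.0134 and 0.00387). Without positive sample 2 none of these chains was called (0.279, 0.162 and 0.0832), C1qa and C1qb were not called without positive sample 4 (0.164 and 0.0814), and C1qa was not called without negative sample 1 (0.0677) or 7 (0.0816). C3ar1, the receptor of the C3a fragment, rose by 2.83 (adjusted p = 0.0121) but was not called without positive sample 2 (0.258) or 4 (0.0509). The later components C2 (-0.55) and Hc, which encodes C5 (-1.10), were not called.

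Chemokines that attract monocytes, eosinophils and B cells were the other large group. Of 33 chemokine genes tested, 6 rose (Ccl24, Ccl8, Ccl12, Ccl7, Cxcl13 and Ccl2) and 1 fell (Ccl11), with a median difference of 0.48. Ccl24 and Ccl8 are also on the list of resident macrophages. Omitting positive sample 1, 2 or 4 gave 13, 2 and 4 rises, and omitting negative sample 7 gave 4. Ccl24, which attracts eosinophils, read 8.19, 10.23 and 10.22 in positive samples and 3.53, 4.77 and 5.18 (lowest, median, highest) in negative ones. Positive samples 2 and 4 were nearly equal and positive sample 1 was lower, and the difference was 5.03 (SE 0.76, limma adjusted p = 4.54e-05). Ccl8, a ligand of monocytes and T cells, read 10.24, 12.31 and 10.36 against 3.91, 7.01 and 7.51, a difference of 4.65 (SE 0.96, adjusted p = 0.0038). It was not called without positive sample 2 (0.0741).

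The monocyte attractants Ccl12, Ccl7 and Ccl2 lie in 1 gene family. Ccl7 read 9.05, 11.32 and 10.47 in positive samples and 4.996 to 8.18 in negative ones, a difference of 3.12 (SE 0.59, limma adjusted p = 0.00112) that was called with each sample left out. Ccl12 rose by 3.53 (adjusted p = 0.000386, and 0.05004 without positive sample 2). Ccl2 rose by 2.29 (adjusted p = 0.0454), and Cxcl13, which attracts B cells, by 2.94 (adjusted p = 0.0468). These 2 calls were weak: neither was made without positive sample 2 (0.364 and 0.333) or positive sample 4 (0.316 and 0.354), and Ccl2 was lost without any of negative samples 4 to 7 and Cxcl13 without any of negative samples 1, 2 and 7. Ccl11, which also attracts eosinophils, differed by -1.84 (adjusted p = 0.0282), with 2.75, 7.24 and 3.69 in positive samples and 5.36 to 8.03 in negative ones. Positive sample 2 lay among the negative samples, and the call was not made without positive sample 1 (0.32), positive sample 4 (0.424) or negative sample 5 (0.0781).

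Secreted and metabolic genes completed the 15 largest rises. Cd5l, a secreted scavenger protein of macrophages, read 6.29, 7.30 and 11.11 in positive samples and 2.98 to 5.08 in negative ones. Positive sample 4 stood well above the other positive samples, and the difference of 4.16 (SE 0.75, limma adjusted p = 0.000557) was not called without it (0.0799). Pla2g2d, a secreted phospholipase, read 8.28, 9.87 and 7.60 against 3.43 to 4.89 and differed by 4.52 (adjusted p = 3.93e-05). Hal, the enzyme that deaminates histidine, read 7.61, 9.97 and 7.29 against 2.58 to 4.45 and differed by 4.69 (adjusted p = 0.00139, and 0.0563 without positive sample 2). Fxyd2, a subunit that regulates the sodium pump, read 5.79, 9.17 and 7.46 against 3.41 to 4.24 and differed by 3.66 (adjusted p = 0.000358). Pla2g2d and Fxyd2 were called with each sample left out. Of the other Fxyd2 probe sets, 1 differed by only 0.28.

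The macrophage genes did not rise as a block. Of 23 genes tested that most macrophages and monocytes share, 4 rose (C1qc, C1qb, Ms4a7 and C1qa) and none fell, with a median difference of 0.93. Omitting positive sample 1, 2 or 4 gave counts of 8, 0 and 1, and omitting negative sample 1 or 7 gave 2. With positive sample 2 omitted, 1069 genes overall had an unadjusted p under 0.05 and 124 were called by limma. Cd68, a lysosomal marker of macrophages, was 9.69, 11.42 and 11.16 in positive samples and 9.45 to 11.39 in negative ones, so that the ranges nearly coincided (0.48, adjusted p = 0.954). Csf1r, the receptor for the macrophage growth factor, was 8.22, 10.68 and 9.62 against 7.66 to 8.58 (1.44, adjusted p = 0.2). Positive samples 2 and 4 lay above all negative samples, and positive sample 1 lay among them. Pf4, a chemokine of platelets and of resident macrophages, read 10.69, 12.61 and 12.52 against 5.87 to 10.98 and was not called (3.11, adjusted p = 0.0684). Of the 11 platelet genes tested, none rose and 1 fell (Mmrn1, which is also on the list of lymphatic genes). Mmrn1 was not called without positive sample 2 (limma adjusted p = 0.0557).

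Alveolar macrophages did not separate the fractions. Of 16 genes tested, none was called, and the median difference was -0.20. Fabp4, a fatty acid carrier that is high in these cells, read 9.15, 10.22 and 11.73 in positive samples and 9.24, 10.69 and 11.30 (lowest, median, highest) in negative ones. The ranges covered each other, and the difference was -0.12 (95% interval -1.70 to 1.46, limma adjusted p = 0.996). Siglecf, a surface lectin of alveolar macrophages, differed by -0.58 (95% interval -1.60 to 0.45, adjusted p = 0.879), and Chil3, a chitinase-like secreted protein, by -0.12 (adjusted p = 0.997). The mean signal of the list was 8.53, 10.15 and 9.81 in positive and 8.91 to 10.70 in negative samples, lowest in positive sample 1.

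Dendritic cell and antigen-presentation genes were not called. None of 13 dendritic cell genes passed the threshold, although their median difference was 1.13, and the list mean was 6.62, 8.68 and 8.94 in positive and 6.59 to 7.81 in negative samples. Positive samples 2 and 4 lay above all negative samples and positive sample 1 near the lowest. None of 11 MHC class II genes was called (median 0.17), and H2-Ab1 read 10.43, 12.70 and 12.12 against 11.39 to 11.91. Of 11 monocyte genes, 2 fell (Vcan and Spn) and none rose, with a median of -0.73, and omitting positive sample 2 or 4 gave 3 and 0 falls. Vcan, a matrix proteoglycan that classical monocytes make, differed by -2.02 and Spn, a sialoglycoprotein of leukocytes, by -1.17, and neither was called without positive sample 4 (adjusted p = 0.138 and 0.123).

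**Figure D3:**
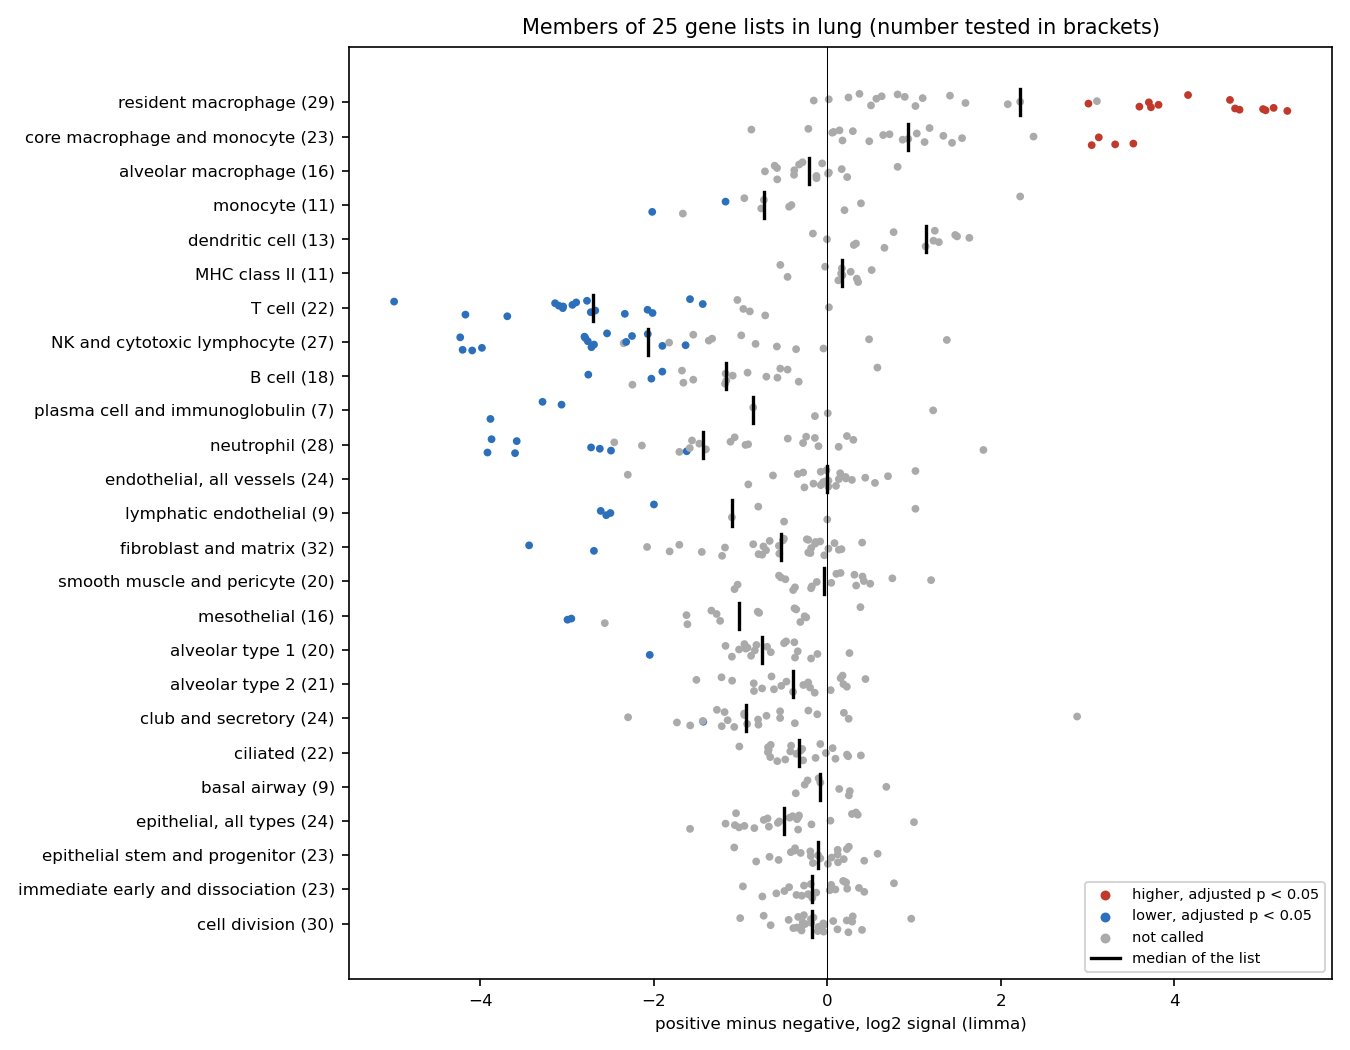
Difference between Prom1-positive and Prom1-negative lung cells (x axis, log2 signal) for each tested member of 25 gene lists (rows, number tested in brackets), with called members in red or blue and the list median as a bar. The called rises lie in the 2 macrophage lists, the called falls mostly in the T cell, NK cell and neutrophil lists, and the epithelial lists hold 2 called members.

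Lymphocyte genes were the largest falls. Of 22 T cell genes tested, 17 fell and none rose, with a median difference of -2.70, and 16 were separated without overlap. The list mean was 4.14, 3.78 and 3.82 in positive samples 1, 2 and 4, close to the array median, and 5.23 to 7.69 in negative samples. Leaving out 1 sample gave counts of 13 to 18. Cd3g, which encodes the gamma subunit of CD3, read 4.64, 3.11 and 2.97 in positive samples and 5.77, 7.50 and 9.14 (lowest, median, highest) in negative ones. Positive sample 1 was the highest of the positive samples, and the difference was -4.17 (SE 0.60, limma adjusted p = 2.27e-05). Cd3d, the delta subunit, read 5.24, 4.21 and 4.24 against 6.71 to 9.50 (-3.69, adjusted p = 2.5e-05).

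Transcription factors and costimulatory receptors of T cells moved with the receptor chains. Bcl11b, which fixes the T cell fate, read 4.02, 3.19 and 3.19 in positive samples and 5.47 to 8.43 in negative ones (-3.14, limma adjusted p = 0.000119). Satb1, a chromatin organiser of developing T cells, read 7.55, 5.84 and 6.59 against 8.95 to 10.82 (-3.07, adjusted p = 9.74e-05). Icos, a costimulatory receptor, read 6.31, 4.85 and 5.63 against 7.64 to 10.06 (-3.10, adjusted p = 3.93e-05). These genes and Cd3g and Cd3d were called with each sample left out, as was Gimap7, a GTPase of lymphocytes (-3.11, adjusted p = 0.000187). Ms4a4b, a membrane protein of T cells, had the largest fall of all genes, -5.00 (SE 1.14, adjusted p = 0.0111), with 3.02, 2.65 and 2.49 in positive samples and 4.92, 7.06 and 10.94 in negative ones. Its other probe set differed by -0.70. The gene was not called without positive sample 2 (0.0624) or positive sample 4 (0.0722).

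Genes that separate T cell subsets were read with less certainty. Cd8b1, a chain of the CD8 coreceptor, fell by 3.05 on the log2 scale (limma adjusted p = 0.0003), with 3.17, 2.89 and 2.71 in positive samples and 4.20 to 8.12 in negative ones. Cd8a had a difference of -0.97 (adjusted p = 0.487) and Cd4 of 0.02 (adjusted p = 0.998), and both were dim, with Cd4 at 4.12 ± 0.56 (n = 3) and 4.10 ± 0.40 (n = 7). Ctla4 and Cd28, an inhibitory and an activating receptor for the same ligands, differed by -2.94 and -3.05 (adjusted p = 0.000123 and 0.00013).

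Of 27 genes tested for NK and cytotoxic lymphocytes, 15 fell and none rose, with a median difference of -2.07. Omitting positive sample 2 gave 10, and omitting any other sample gave up to 17. Klrd1 and Cma1 were not called without positive sample 1 (limma adjusted p = 0.0698 and 0.078) or positive sample 4 (0.228 and 0.164). Cma1 is also on the list of mast cells, basophils and eosinophils. Il2rb, a receptor chain for interleukins that sustain NK cells, read 5.76, 3.27 and 3.29 in positive samples and 6.99, 8.47 and 9.21 (lowest, median, highest) in negative ones. Positive sample 1 was the highest of the positive samples, and the difference was -4.23 (SE 0.52, limma adjusted p = 3.05e-06). The other Il2rb probe sets differed less, by -2.06 and -0.99. The granzymes are proteases of cytotoxic granules. Gzmb read 5.50, 3.52 and 3.39 against 6.80, 8.28 and 9.78 (-4.21, SE 0.65, adjusted p = 6.51e-05), and Gzma read 5.90, 3.80 and 3.43 against 7.02, 8.13 and 10.02 (-4.10, adjusted p = 6.51e-05). Nkg7, a granule membrane protein, read 5.22, 3.60 and 3.51 against 6.47, 8.15 and 9.45 (-3.98, adjusted p = 4.44e-06). Positive sample 1 was again the highest of the positive samples in each, and each was called with every sample left out.

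The regulators of this programme were lower too. Tbx21, the transcription factor T-bet, differed by -2.76 (limma adjusted p = 0.000403) and was called with each sample left out, and Eomes, its relative, by -2.32 (adjusted p = 0.00537, and 0.0503 without positive sample 4). Klrg1, an inhibitory receptor, fell by 2.69 on the log2 scale (adjusted p = 0.000486). Perforin, Prf1, was dim in both fractions, at 3.77 ± 0.09 (n = 3) and 3.82 ± 0.16 (n = 7), and was not called. Ccl4 (1.38) and Ccl3 (0.48), chemokines that NK cells and macrophages both make, had the opposite sign and were not called. Of 6 genes of type 2 innate lymphocytes, none was called.

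The promoters of Vsig4 and Gzmb are shown as those of a leading rise and a leading fall. The 250 bases before the start are given 5′ to 3′ on the strand of the gene, from RefSeq on GRCm38.p6. Capitals mark GAGGAA, the core bound by the myeloid factor PU.1, in Vsig4, and TGTGGT, the core bound by RUNX factors, in Gzmb.
Vsig4 promoter, chrX:96293439-96293688, minus strand: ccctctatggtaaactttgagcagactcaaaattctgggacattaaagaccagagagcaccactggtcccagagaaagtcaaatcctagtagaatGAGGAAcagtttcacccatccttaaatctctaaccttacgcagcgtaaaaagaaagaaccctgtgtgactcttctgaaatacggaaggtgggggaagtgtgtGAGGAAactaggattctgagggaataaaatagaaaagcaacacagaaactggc
Gzmb promoter, chr14:56262335-56262584, minus strand: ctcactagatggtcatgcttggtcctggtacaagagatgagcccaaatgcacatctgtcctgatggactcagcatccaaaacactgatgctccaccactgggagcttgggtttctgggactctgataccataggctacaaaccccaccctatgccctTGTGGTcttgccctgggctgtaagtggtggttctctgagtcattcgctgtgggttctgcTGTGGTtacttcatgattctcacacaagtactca
Some genes have more than 1 promoter and others have none. The 15 largest rises had 13 promoters from 12 genes, and the 15 largest falls had 15 promoters from 11 genes. Searched on both strands, GAGGAA was found in 5 of the 13, in 8 of the 15 and in 23.3% of all 32851 promoters kept. TGTGGT was found in 2 of 13, in 5 of 15 and in 4614 of all 32851. Matches of the 2 motifs overlapped each other in 8 of all promoters. The motifs were chosen after the sequences had been seen, and a match is a description of letters and not a binding site.

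B cell and antibody genes fell in part. Of 18 B cell genes tested, 3 fell (Pou2af1, Blk and Cxcr5) and none rose, with a median difference of -1.17, and omitting either positive sample 2 or 4 gave 0, while omitting negative sample 4 or 7 gave 2. With positive sample 4 omitted, 827 genes overall had an unadjusted p under 0.05 and 120 were called by limma, and with positive sample 2 omitted these numbers were 1069 and 124. Ms4a1, which encodes CD20, read 6.40, 5.43 and 7.04 in positive samples and 7.67, 8.04 and 10.64 in negative ones. It was separated without overlap but not called (-2.25, limma adjusted p = 0.225). Of 7 plasma cell and immunoglobulin genes, 3 fell (Jchain, Igk-V21 and Iglv1) and none rose, with a median of -0.85. Jchain, which joins antibody units, read 6.82, 7.33 and 6.68 against 9.33, 10.85 and 11.93, a difference of -3.89 (SE 0.68, adjusted p = 0.000431) that was called with each sample left out. Igk-V21, an immunoglobulin light chain segment, fell by 3.28 (adjusted p = 0.00139), but its other probe sets read near no difference (0.06 and 0.04), and it was not called on their mean (adjusted p = 0.166).

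Of 28 neutrophil genes tested, 8 fell (S100a9, Stfa2l1, S100a8, Acod1, Lcn2, Ngp, Mmp8 and Cxcr2) and none rose, with a median difference of -1.44. Omitting positive sample 1 or 2 gave 4 in each case. Stfa2l1, a stefin that inhibits proteases, read 2.96, 3.73 and 4.41 in positive samples and 6.16, 7.54 and 9.54 in negative ones. Negative values spread widely, and it fell by 3.87 (SE 0.50, limma adjusted p = 3.71e-06). Mmp8, the neutrophil collagenase, read 3.17, 3.74 and 3.17 against 4.74, 5.56 and 8.45, with every positive value at or under the array median (-2.49, SE 0.41, adjusted p = 0.00013). Both were called with each sample left out.

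The calprotectin genes and Acod1 were graded across the positive samples. S100a9, a subunit of calprotectin, read 5.01, 8.80 and 11.06 in positive samples 1, 2 and 4, and 10.79, 12.38 and 12.86 (lowest, median, highest) in negative ones. S100a8, the other subunit, read 5.48, 8.42 and 10.47 against 10.06, 11.88 and 12.74. Positive sample 4 reached into the negative range in both. They differed by -3.92 (SE 0.92, limma adjusted p = 0.0129) and -3.60 (adjusted p = 0.0163), and neither was called without positive sample 1 (0.186 and 0.173), nor S100a8 without positive sample 2 (0.0622). Acod1, the enzyme that makes itaconate, followed the same order with 3.28, 4.63 and 8.82 against 7.36 to 10.81 (-3.58, adjusted p = 0.00861) and was not called without positive sample 1 (0.109) or 2 (0.114). Of 13 mast cell, basophil and eosinophil genes 1 fell (Cma1, a chymase, -2.54, adjusted p = 0.0298), with a call lost in 6 of the 10 fits that left out a sample, and of 11 erythroid genes none was called, with Hba-a1 at 13.83, 12.75 and 11.09 against 11.79 to 13.94.

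Blood vessel genes did not separate the fractions as groups. None of 24 endothelial genes was called, with a median difference of 0.00. Cdh5, the cadherin of endothelial junctions, read 11.36, 8.27 and 9.34 in positive samples and 6.09, 10.12 and 10.60 (lowest, median, highest) in negative ones. Positive sample 1 was the highest of all 10 samples and negative sample 7 the lowest. The difference was 0.01 (95% interval -1.33 to 1.35, limma adjusted p = 0.999). The list mean was 10.62 in positive sample 1, 8.18 in positive sample 2 and 8.97 in positive sample 4, and 6.6005 to 10.12 in negative samples. Of 22 genes of lung capillaries and large vessels 1 fell, Bmx, a kinase of arteries (-1.20, adjusted p = 0.0234), and it was not called without positive sample 2 (0.0909), positive sample 4 (0.76) or negative sample 7 (0.0595).

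Lymphatic genes fell in part. Of 9 tested, 4 fell (Reln, Ccl21b, Mmrn1 and Sema3d), with a median of -1.10, and omitting positive sample 2 or 4 gave counts of 1 and 2. Ccl21b, a chemokine of lymphatic vessels that draws dendritic and T cells, read 8.44, 7.20 and 8.59 in positive samples and 9.21, 11.17 and 11.58 in negative ones. It was separated without overlap (-2.55, SE 0.52, limma adjusted p = 0.00288; 0.0755 without positive sample 2). It is 1 of a group of near-identical Ccl21 genes whose signals may not be separable. Reln, a secreted glycoprotein, fell by 2.61 (adjusted p = 0.0231) and was not called without positive sample 2 (0.125), positive sample 4 (0.203) or negative sample 5 (0.056). Prox1, the factor that specifies lymphatic cells, was under the array median in both fractions, at 2.48 ± 0.24 (n = 3) and 2.98 ± 0.20 (n = 7), and Flt4, a lymphatic growth factor receptor, did not differ (0.00).

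Stromal and mesothelial genes gave a few stable falls. Of 32 fibroblast and matrix genes tested, 2 fell (Clec3b and Lum), with a median difference of -0.53 and a positive sign in 5. Omitting positive sample 2 or 4 gave 5 and 1 falls. Clec3b, tetranectin, which binds plasminogen, read 5.43, 6.23 and 5.85 in positive samples and 8.21, 9.32 and 10.22 in negative ones. The positive samples lay close together, and the difference was -3.44 (SE 0.43, limma adjusted p = 3.05e-06), called with each sample left out. Lum, a collagen-binding proteoglycan, read 5.59, 8.34 and 4.07 against 7.97, 8.99 and 9.49. Positive sample 2 lay in the negative range, and the call (-2.69, adjusted p = 0.00275) was not made without positive sample 4 (0.225). Col1a1, a collagen chain, was not called (-1.21, adjusted p = 0.203), nor was any of 20 smooth muscle and pericyte genes (median -0.04).

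Of 16 mesothelial genes tested, 2 fell (Lrrn4 and Gpm6a), with a median of -1.02 and a positive sign in 1. The list mean was 4.60, 4.30 and 4.49 in positive and 4.86 to 6.94 in negative samples. Lrrn4, a membrane protein of mesothelial cells, read 2.88, 2.89 and 3.21 in positive samples, all under the array median, and 4.30, 5.83 and 7.69 in negative ones. It did not overlap, and the difference was -2.996 (SE 0.56, limma adjusted p = 0.00101), called with each sample left out. Gpm6a, a membrane glycoprotein, fell by 2.95 (adjusted p = 0.0135) but was not called without positive sample 2 (0.125) or 4 (0.203). Msln, mesothelin, was not called (-1.61, adjusted p = 0.179).

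Transcripts of the lung epithelium were read in both fractions. Sftpc, the surfactant protein of type 2 cells, read 13.21, 12.01 and 12.72 in positive samples and 11.63, 12.86 and 13.58 (lowest, median, highest) in negative ones. It was far above the array median in all 10 samples and did not separate them (-0.14, 95% interval -1.64 to 1.35, limma adjusted p = 0.995). None of 21 type 2 genes was called (median -0.39). Of 20 type 1 genes 1 fell (Akap5, a scaffold of kinase signalling, -2.05, adjusted p = 0.0231), with a median of -0.76, and it was not called without positive sample 2 (0.166), positive sample 4 (0.11) or negative sample 1 (0.054). Ager, a receptor that marks type 1 cells, read 11.70, 8.69 and 11.09 against 6.28, 11.61 and 12.65, lowest in negative sample 7.

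Airway genes were hardly called. Of 24 club and secretory genes 1 fell (Lypd2, -1.43, limma adjusted p = 0.0415), with a median of -0.94, and Lypd2 was lost in 8 of the 10 fits that left out a sample. The mean of the list was 5.88, 6.51 and 6.34 in positive samples, inside the range of 5.77 to 7.57 in negative ones. Scgb1a1, the club cell secretoglobin, read 11.14, 11.95 and 12.53 in positive samples and 12.56, 12.98 and 13.33 in negative ones. The ranges almost touched without overlap, and it was not called (-1.07, 95% interval -2.18 to 0.04, adjusted p = 0.552). Retnla, a secreted protein of airway and of alternatively activated macrophages, had the opposite sign (2.88) and was not called. None of 22 ciliated, 9 basal or 12 neuroendocrine genes was called (medians -0.33, -0.08 and -0.04), and most neuroendocrine genes were under the array median in both fractions (9 of 12).

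None of 24 general epithelial genes was called (median -0.49). A positive sign was found in 5 of them, beside 6848 of all 14081 genes tested. It was found in 6 of 21 type 2, 1 of 20 type 1 and 3 of 24 club and secretory genes. In ciliated, basal and neuroendocrine genes it was found in 5 of 22, 4 of 9 and 6 of 12. Most genes of the larger epithelial lists thus leaned lower in positive samples, and these sign counts were not tested. Epcam, an adhesion protein of epithelia, read 7.21, 9.01 and 7.89 in positive samples and 7.94, 8.25 and 8.94 in negative ones, with positive samples on both sides of the negative range (-0.34, limma adjusted p = 0.941). Of 23 epithelial stem and progenitor genes, none was called, with a median of -0.10 beside -0.01 for all genes. Lgr5, a Wnt-linked stem cell receptor, was dim in both fractions (3.33 ± 0.47, n = 3, and 3.50 ± 0.50, n = 7). Sox9, a factor of distal lung progenitors, read 3.20, 4.12 and 4.50 against 3.10 to 3.81 (0.43, 95% interval -0.33 to 1.18). Bmi1, a chromatin regulator of self-renewal, read 8.72, 7.72 and 6.65 against 8.16 to 8.51 (-0.67, 95% interval -1.65 to 0.32). The positive samples spread to both sides of the negative ones.

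In general programmes few genes were called. None of 30 cell division genes, 23 immediate early and dissociation genes, 19 interferon response genes or 26 lysosome and lipid genes was called, with medians of -0.17, -0.17, 0.07 and 0.17. In 4 of the 26 lysosome and lipid genes (Ctsb, Lamp1, Apoe and Lgmn) the positive samples lay above all negative ones. The share over all genes tested was 2.02%. The differences of these uncalled genes were 0.36 (Lamp1) to 1.34 (Lgmn). Mki67, a marker of cycling cells, read 5.26, 7.90 and 8.33 in positive samples and 5.98 to 7.94 in negative ones (0.24, limma adjusted p = 0.985), and Fos, an early response factor, 12.04, 11.92 and 11.58 against 11.50 to 12.28. Of 17 iron and haem genes, 2 rose: Cd163 and Blvrb, which reduces biliverdin (1.58, adjusted p = 0.021). Blvrb was not called without positive sample 2 (0.414) or positive sample 4 (0.142).

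The samples of each fraction differed in their makeup. The plot of list means by sample shows that positive sample 1 combined the lowest resident macrophage mean of the positive samples with the highest endothelial mean of all samples. Negative sample 7 combined the highest T cell mean (7.69) with the lowest endothelial (6.6005) and type 1 (5.34) means. Correlations across all genes tested were 0.900 to 0.947 between positive samples, 0.886 to 0.989 between negative samples and 0.843 to 0.967 between samples of unlike status, and these ranges overlapped.

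**Figure D4:**
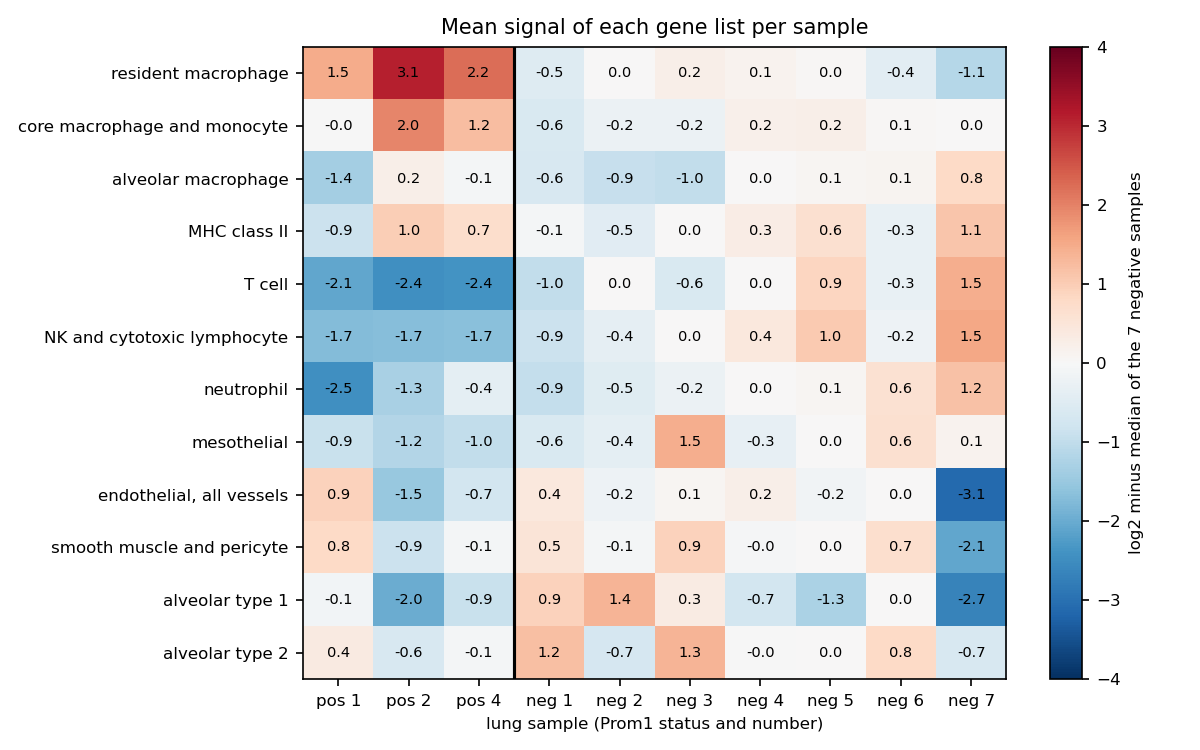
Mean log2 signal of 12 gene lists (rows) in each lung sample (columns, Prom1 status and number), given as the difference from the median of the 7 negative samples, with 3 positive samples left of the line. The resident macrophage row is above and the T cell, NK cell and mesothelial rows are below every negative sample in all positive samples, whereas the endothelial and alveolar rows follow single samples.

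The lung difference was set against the mean difference in 5 other sorted tissues (prostate, intestine, liver, stomach and uterus), with no sample shared between tissues. Of the genes tested, 13 departed from that mean (0.0923%), 4 upward (0.0284%) and 9 downward (0.0639%). Vsig4, the complement receptor, exceeded it by 5.08 (SE 0.83, limma adjusted p = 0.0011), with differences of -0.36 in prostate, -0.05 in intestine, -2.14 in liver, 0.56 in stomach and 3.12 in uterus. Ccl24, the eosinophil attractant, exceeded it by 4.34 (adjusted p = 0.00972), with 2.36 in prostate, 0.20 in intestine, -2.33 in liver, 0.11 in stomach and 3.12 in uterus. Cd5l exceeded it by 3.84 (adjusted p = 0.0349), with 3.98 in uterus and -1.72 in liver. The uterus difference was the nearest to that of lung for all 3, and the liver difference had the opposite sign. The call of Ccl24 was not made without positive sample 2 (0.0795) or positive sample 4 (0.0855), and that of Cd5l without positive sample 4 (0.433) or negative sample 4 or 7.

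Downward, Stfa2l1, the neutrophil stefin, departed by -3.77 (SE 0.55, limma adjusted p = 0.000248), with differences of 0.04, 0.29, -1.05, -0.31 and 0.54 in prostate, intestine, liver, stomach and uterus. Arg2, a mitochondrial arginase, departed by -2.67 and Mmp8 by -2.41 (adjusted p = 0.00661 for both). Cd28, an activating receptor on T cells, departed by -2.54 (limma adjusted p = 0.0352). Sidt1, a membrane protein of lymphocytes, departed by -2.51 (limma adjusted p = 0.0278), although the other Sidt1 probe set showed no lung difference (-0.02). In lung itself Arg2 read 3.64, 4.49 and 6.41 in positive samples and 6.02 to 9.33 in negative ones, and positive sample 4 lay inside the negative range. Neither Cd28 (0.117 and 0.172) nor Sidt1 (0.0795 and 0.0874) departed without positive sample 2 or positive sample 4, nor with any of negative samples 4, 5 and 7 omitted, and Mmp8 did not without positive sample 4 (0.0608). Omitting positive sample 1 or 4 gave 100 and 7 such genes, and omitting negative sample 1 or 2 gave 25 and 36.

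**Figure D5:**
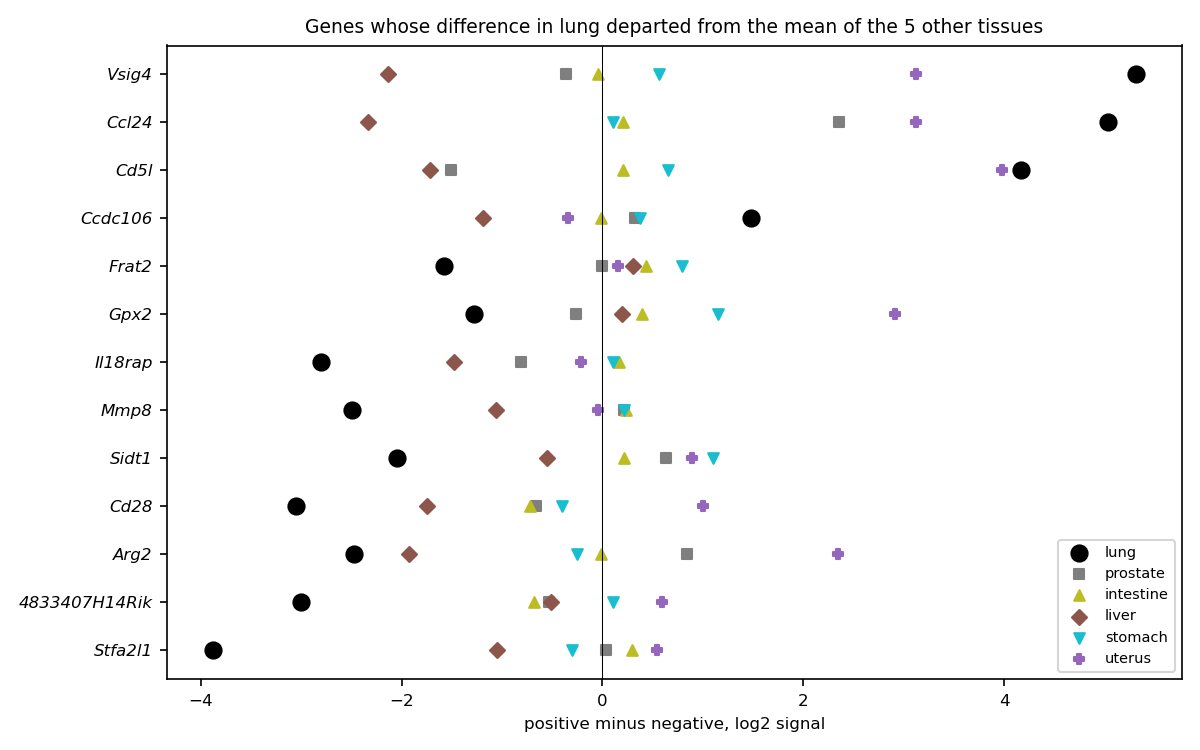
Difference between Prom1-positive and Prom1-negative cells (x axis, log2 signal) in lung and 5 other tissues for the 13 genes (rows) whose lung difference departed from the mean of the others at an adjusted p under 0.05. The lung symbol lies outside the range of the other tissues for each gene, with Cd5l in uterus (3.98) closest to lung (4.16).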

How the data were processed

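Single-colour Affymetrix mouse arrays were deposited as log2 probe set signals made by the authors with RMA and Partek 6.6, per the submitters' processing notes, in which the roles of both tools are not given. Of 45141 probe sets, 28898 had 1 gene symbol, 551 several and 15692 none in the platform annotation. The brightest probe set over all 117 arrays represented each of 17097 genes, and 14081 with a signal above the array median in at least 3 sorted arrays were tested. Symbols were updated by Entrez identifier (28689 matched).

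Group means of 51 sorted samples were fitted with limma 3.58.1 in R 4.3.3 (lmFit, eBayes, two-sided), and lung positive minus negative, and its departure from the mean of 5 other tissues, were contrasted with Benjamini-Hochberg adjustment at 0.05. Genes named were Prom1, members of the lists, the 15 largest called rises and falls without overlap, and the 5 largest departures each way (4 upward were found), passing over predicted and clone-named genes. Members and lists were chosen with earlier results of these data known. The lists were described by counts and medians and not tested. Alternatives covered samples, filter, probe rule, scaling, covariates, eBayes options, array weights, blocks and omitted samples. The lung samples with codes of 200 and over were added after the data were seen.

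The numbers in the titles were checked as pairs: same-numbered positive and negative samples had deviations from group means that correlated at 0.51, -0.15 and -0.07, so they were not treated as pairs. Promoters came from RefSeq (GRCm38.p6). Sequences of incomplete length and those of an excluded chromosome were dropped before the search. The promoters kept covered 12 of the 15 largest rises and 11 of the 15 largest falls. No protein sequence was used here.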

Additional observations from a re-analysis of the deposited data

Results flagged for a closer look

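In negative samples, Mmp8 was far higher in sample 7 (8.45) than in the next sample (6.21), with the lowest at 4.74; a gap of this kind is found by chance in about 1 of 20 groups. Negative sample 7 was also highest in Stfa2l1 (9.54) and S100a9 (12.86).

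For 9 named genes the lung difference departed from the mean of the 5 other tissues in limma: upward for Vsig4 by 5.08 (SE 0.83), Ccl24 by 4.34 (SE 0.84), Cd5l by 3.84 (SE 0.82) and Ccdc106 by 1.65 (SE 0.35, adjusted p = 0.0349), and downward for Stfa2l1 (-3.77), Arg2 (-2.67), Cd28 (-2.54), Sidt1 (-2.51) and Mmp8 (-2.41). Ccdc106 was under the array median in the negative fraction, at 3.38 ± 0.23 (n = 7), and read 3.52, 5.84 and 5.21 in positive samples. Its departure was not called without positive sample 2 (0.329), positive sample 4 (0.188), negative sample 3 (0.0527) or negative sample 4 (0.0533).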

How the results depend on the processing

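The lung count of 212 genes was 57 in a fit of lung samples alone, where 162 of the 212 were not called. It was 89 with lung codes under 200, 110 with neighbouring codes as blocks and 1014 with array weights. When samples were left out it was 120 to 526. Without arrays of low upper quartile (under 6) it was 190, and 90 of the 212 were not called. The arrays removed were lung positive sample 4 (5.85), liver positive samples 2 (5.96) and 3 (5.97), stomach positive samples 2 (5.62) and 3 (5.95), and a negative stomach array (5.05). All except the lung array were part of the mean of the 5 other tissues. Stomach positive sample 1 was then the only sample of its group. With a replicate block by title number, 56 genes were called, 49 of them among the 212; the numbers did not mark pairs. The departures from the other tissues, 0.0923% of genes tested, were 0.273% with all 117 samples, 0.198% on the mean of probe sets, 0.142% after repeated quantile normalization and with trended eBayes, 0.163% with the upper quartile as covariate, 2.78% with array weights, 0.0142% (2 genes) with the replicate block, 0.149% with blocks of code range, 0.0499% with lung codes under 200, 0.512% without arrays of low upper quartile, 0.815% with lung codes of 200 and over (1 positive against 2 negative samples), and 0.0499% to 0.711% with a sample left out. The cause was not tested. Prom1 was not called in any alternative, from -0.44 (codes of 200 and over) to 0.19 (codes under 200). Its sign varied. The called genes kept their sign wherever they were tested.

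Of the 15 largest rises and 15 largest falls without overlap, 11 and 11 were called with the replicate block, 11 and 14 with neighbouring codes as blocks (Ccl8, Cd163, Clec10a, Cd209d and Ms4a4b were lost), 14 and 14 in lung alone, 11 and 13 with codes under 200, 5 and 13 with codes of 200 and over, and 9 and 14 without positive sample 2. The 3 positive arrays limit the precision of every difference, and the codes of 200 and over were set apart after the data were seen.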

Other observations

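Genes outside the lists, chosen after their values were seen, included Il10, an anti-inflammatory cytokine, which was 7.80 ± 2.16 (SD, n = 3) in positive and 4.79 ± 0.30 (SD, n = 7) in negative cells (difference 3.02, limma adjusted p = 0.00145; 0.0698 without positive sample 2 and 0.0722 without positive sample 4). Bmp2, a growth factor, differed by 2.39 (adjusted p = 0.0466), Fcrls, an Fc receptor-like scavenger of macrophages, by 3.06 (adjusted p = 0.000673) and Cysltr1, a leukotriene receptor, by 1.42 (adjusted p = 0.0121), and none of them was called without positive sample 2 (0.39, 0.0563 and 0.373); the call of Bmp2 was lost in 7 of the 10 fits that left out a sample. Among stromal genes, Ptx3, a secreted pentraxin, differed by -2.66 (adjusted p = 6.51e-05) and called with each sample left out, whereas Scara5 (-3.15), a ferritin receptor of fibroblasts, was not called without positive sample 1 (0.132) or 4 (0.342). Among lymphocyte genes, Cxcr6 (-2.69) and Ltb (-2.09) were called with each sample left out, and Ifng (-2.29) was not called without positive sample 2 (0.0734) or 4 (0.0993).

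Alb and Pbsn, known as genes of liver and prostate, were called higher in positive lung cells. Alb was 5.68 ± 0.88 (n = 3) against 3.88 ± 1.54 (n = 7; limma adjusted p = 0.0294), and Pbsn was 4.40 ± 2.57 (n = 3) against 2.57 ± 0.45 (n = 7; limma adjusted p = 0.0135). Both overlapped between the fractions, and neither was called without positive sample 2 (0.177 and 0.946). The call of Alb was lost in 7 of the 10 fits that left out a sample.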
